A study of Drosophila melanogaster with 47 samples.

Results

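Mitochondrial ribosomal protein genes were taken as all rows of the count table whose symbol starts with mRpL or mRpS, and 73 of the 17137 listed genes met this rule: 47 mRpL and 26 mRpS symbols. The counts came from poly(A) RNA of fly heads in 47 libraries, collected in a light-dark cycle at 6 zeitgeber times (ZT, hours after lights on): ZT2, ZT6, and ZT10 in the light, and ZT14, ZT18, and ZT22 in the dark. The control strain *yw* had 11 libraries, 2 per time point except 1 at ZT18. The other strains were homozygous for CRISPR deletions at *timeless* (*tim*), a clock gene on chromosome 2. The strains *tim_up126* and *tim_up122* (12 libraries each) and *tim_up10* (6 libraries, 1 per time point) lack sequence upstream of *tim* that includes an E-box, the short DNA motif bound by the clock activators CLK and CYC, and *tim_in24* (6 libraries, 1 per time point) lacks an intronic E-box. Each deletion is represented by 1 line, heads of males and females were used, and the age of the flies is not given in the sources used here. In whole heads, a change in RNA per cell and a change in the share of a cell type cannot be told apart.

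Mitochondria keep a small genome and a ribosome of their own, which makes the few proteins that genome encodes, all of them parts of the respiratory chain or the ATP synthase. All proteins of this ribosome are encoded in the nucleus, made in the cytosol, and imported. The mRpL genes are named for the large subunit, which holds the peptidyl transferase centre and the exit tunnel, and the mRpS genes for the small subunit, which decodes the mRNA. In human mitochondria 2 of the proteins with S names, S30 and S18A, sit in the large subunit, so the grouping here follows the symbols only. As a rough guide, the 73 symbols were split by their number into 45 labelled bacterial-family and 28 labelled mitochondria-specific. This split was not checked gene by gene, and single genes may be misplaced.

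Library totals ran from 1761896 to 10230355 counts, of which the 73 genes took 0.117 to 0.166% (2179 to 15754 counts per library). All 73 genes passed the filter on low counts, with mean levels between 5.08 and 73.1 CPM (counts scaled to a common library size with TMM factors) and a median of 14.3 CPM. The lowest count in a single library was 2 and the highest was 805. Neuron and photoreceptor markers were abundant in each library, with elav at 145 CPM or more and ninaE at 16685 CPM or more, while summed testis markers were at 3.04 CPM or less and summed ovary markers at 5.14 CPM or less, except for 65.6 CPM in *tim_up122* ZT6 replicate 2. *tim* itself had medians of 928 CPM in *yw*, 777 in *tim_in24*, 399 in *tim_up10*, 341 in *tim_up122*, and 144 in *tim_up126*. Averaged over the day, it fell by 2.20 ± 0.13 (SE) on the log2 scale in *tim_up126* (adjusted p = 2.0e-12), by 1.05 ± 0.13 in *tim_up122*, and by 0.88 ± 0.16 in *tim_up10*, while the log2 difference of -0.06 ± 0.15 in *tim_in24* did not pass the test (adjusted p = 0.84). In *tim_up126* the summed level of the 73 genes was higher in replicate 1 than in replicate 2 at 6 of 6 time points (1337 to 1432 against 1207 to 1292 CPM), with neuron markers at 3361 to 3545 against 4036 to 4577 CPM. In *tim_up122* replicate 1 was the lower of the pair at 6 of 6 time points, with neuron markers at 3937 to 4488 against 3537 to 3875 CPM.

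The first comparison asked which of the 73 genes differed between each deletion strain and *yw* over the day, as the mean of the 6 time points. Few did, and the same large-subunit genes led in each strain. *mRpL27* was higher in all 4 strains by 1.496 to 1.64 on the log2 scale, and *mRpL4* by 0.52 to 0.65. In *tim_up126* 4 of the 73 genes rose and 1 fell by edgeR's quasi-likelihood test with Benjamini-Hochberg adjustment over all genes (adjusted p under 0.05), where 12.1% of the 11027 genes tested rose and 13.3% fell. DESeq2 called 4 and 0. In *tim_up122* 5 rose and 0 fell (background 12.6% and 13.6%), and DESeq2 called 4 and 0. In *tim_up10* 4 rose and 0 fell (11.2% and 12.2%), and DESeq2 called 2 and 0. In *tim_in24* 7 rose and 3 fell (12.3% and 13.1%), and DESeq2 called 5 and 0. At an unadjusted p under 0.05, 1 member was lower in *tim_up122* and 6 in *tim_up10*. The share of called members was below the background in each strain and direction. The median log2 difference over the 73 genes was -0.04, 0.04, -0.04, and 0.04 in *tim_up126*, *tim_up122*, *tim_up10*, and *tim_in24*, beside -0.0096, -0.00096, -0.04, and -0.03 over all genes tested. With scaling by library totals alone, the median of all genes in *tim_up10* lay at -0.17 and that of the members at -0.17, and the medians of the members in *tim_up122* and *tim_in24* turned to -0.0016 and -0.04. All 4 comparisons used the same *yw* libraries, so they are not independent of each other. In *tim_up10* and *tim_in24* each time point had 1 library, so these strains gave no spread of their own. Their SE and p-values rest on the spread between replicates of *yw*, *tim_up126*, and *tim_up122*. In all, 62 of the 73 genes were called in none of the 4 comparisons, and the matching share of all genes tested was not counted. Single libraries moved some of these counts. In *tim_up126* 0 members fell without *yw* ZT18, 4 without *tim_up126* ZT10 or ZT18 replicate 1, 5 without ZT14 or ZT22 replicate 1, and 2 without *yw* ZT6 replicate 1 or 2, *yw* ZT14 replicate 1, or *tim_up126* ZT2 replicate 1, ZT6 replicate 1, or ZT18 replicate 2. In *tim_up122* 8 rose without *yw* ZT18. In *tim_up10* 2 rose without its ZT6 library, and 1 fell without *yw* ZT6 replicate 2, *yw* ZT14 replicate 1, or its own ZT10 or ZT14 library. In *tim_in24* 0 fell without its ZT2 library and 1 without its ZT6 library or without *yw* ZT2, ZT6, or ZT14 replicate 2.

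**Figure D1:**
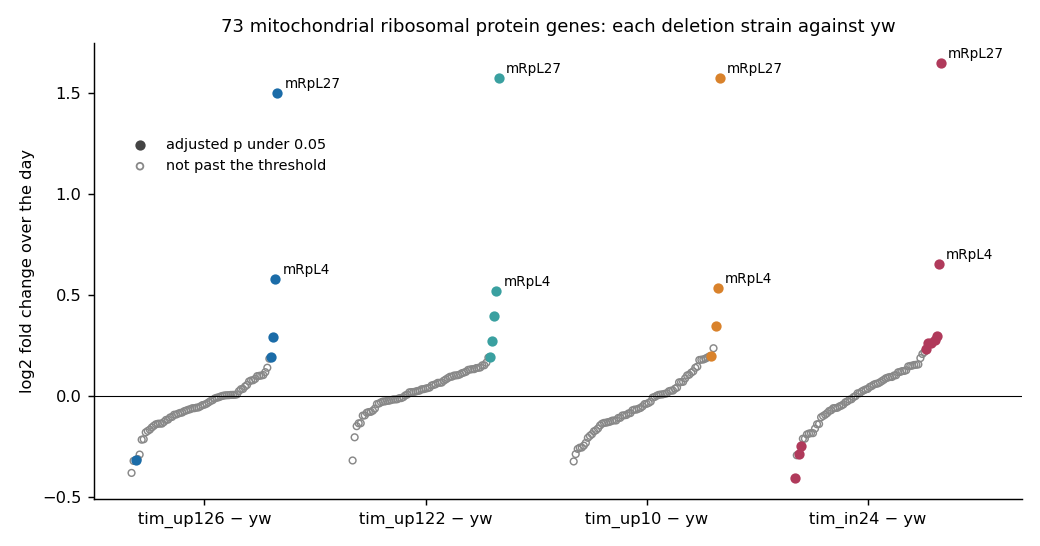
Log2 fold change of each of the 73 genes in each deletion strain against *yw*, averaged over 6 time points (y axis); points are genes, sorted by value within each strain, and filled points have an adjusted p under 0.05 (edgeR). *mRpL27* lies between 1.496 and 1.64 and *mRpL4* between 0.52 and 0.65 in the 4 strains, while the medians lie between -0.04 and 0.04.

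*mRpL27* encodes the mitochondrial member of the L27 family, which in bacteria reaches close to the peptidyl transferase centre. In the 11 *yw* libraries it ranged from 9.74 to 19.0 CPM, with a median of 12.4. It ranged from 29.7 to 46.5 CPM (median 36.4) in *tim_up126*, from 33.9 to 43.0 (median 38.7) in *tim_up122*, from 34.3 to 44.1 (median 38.7) in *tim_up10*, and from 34.6 to 49.5 (median 39.6) in *tim_in24*. Each library of the 4 deletion strains was above each *yw* library, with no overlap. The log2 fold changes were 1.496 ± 0.07 (SE) in *tim_up126* (adjusted p = 2.7e-14), 1.57 ± 0.07 in *tim_up122* (1.0e-14), 1.57 ± 0.09 in *tim_up10* (5.2e-13), and 1.64 ± 0.08 in *tim_in24* (8.8e-14). It (FBgn0053002) lies on the minus strand of chromosome arm 2L at 4458595 to 4459638 in dm6, 950 kb from *tim*. The neighbours RpL27A, 230 bases away on the same strand, CG15435, 90 bases away on the other strand, and Gs1l were called in none of the 4 comparisons.

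*mRpL4* belongs to the L4 family, which in bacteria lines part of the exit tunnel for the new protein. It ranged from 13.7 to 18.6 CPM (median 16.8) in *yw*. The levels were 21.4 to 30.3 CPM (median 24.04) in *tim_up126*, 17.96 to 28.1 (median 23.7) in *tim_up122*, 20.3 to 30.5 (median 23.3) in *tim_up10*, and 24.5 to 29.4 (median 25.0) in *tim_in24*. There was no overlap with *yw* in *tim_up126*, *tim_up10*, and *tim_in24*, and in *tim_up122* only the lowest library, ZT14 replicate 1, lay within the *yw* range. It rose by 0.58 ± 0.08 on the log2 scale in *tim_up126* (adjusted p = 6.0e-06), by 0.52 ± 0.08 in *tim_up122* (2.8e-05), by 0.53 ± 0.10 in *tim_up10* (0.00034), and by 0.65 ± 0.10 in *tim_in24* (1.4e-05). The gene (FBgn0001995, 2L, 16328059 to 16329132, minus strand) shares 73 bases with CG4278 on the other strand, which was also higher in *tim_up126* (log2 fold change 0.33, adjusted p = 0.015), *tim_up122* (0.36, 0.0084), and *tim_in24* (0.35, 0.035). The strand setting of the counting is not given in the sources used here, and the part of CG4278 in the *mRpL4* counts was not tested. *mRpL27* and *mRpL4* were the only members called in all 4 strains and the only ones with no overlap in any strain. How many of all genes tested did so was not counted, so neither number is a result about this family.

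**Figure D2:**
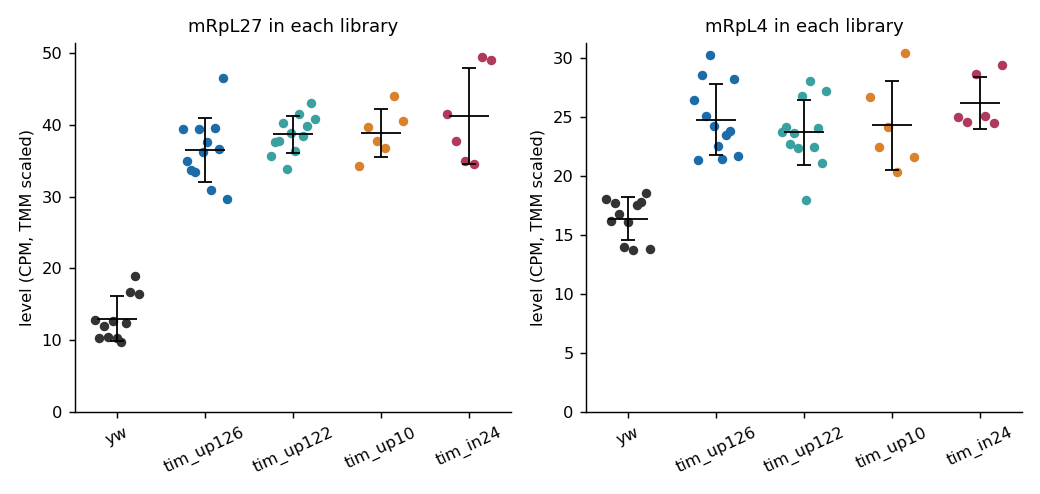
Levels of *mRpL27* and *mRpL4* (y axis, CPM scaled by TMM factors) in each of the 47 libraries, grouped by strain and placed from left to right by time point; black bars give the mean and SD of each strain. All deletion-strain libraries lie above the *yw* libraries for *mRpL27* (29.7 CPM or more against 19.0 or less), and for *mRpL4* 1 *tim_up122* library at 17.96 CPM lies within the *yw* range of 13.7 to 18.6.

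The other called members changed by at most 0.41 on the log2 scale, and their levels overlapped those of *yw*. *mRpL18*, whose bacterial relative binds the 5S rRNA, ranged from 9.47 to 13.99 CPM (median 11.8) in *yw* and had medians of 14.2 in *tim_up126*, 14.1 in *tim_up122*, and 14.6 in *tim_up10*. It rose by 0.29 ± 0.07 (adjusted p = 0.0023), 0.27 ± 0.07 (0.0047), and 0.35 ± 0.09 (0.0046) there on the log2 scale. By DESeq2 the calls in *tim_up122* (adjusted p = 0.063) and *tim_up10* (0.056) were lost, as was the call in *tim_up10* with library totals alone (0.075) and without its ZT6 library (0.051). *mRpL28*, of the L28 family, had medians of 46.8 CPM in *yw*, 54.9 in *tim_up126*, 53.7 in *tim_up122*, and 58.4 in *tim_in24*. Its log2 fold changes were 0.19 ± 0.06 (adjusted p = 0.012), 0.19 ± 0.06 (0.013), and 0.30 ± 0.07 (0.0017), and the call in *tim_up126* was lost with library totals alone (0.14, adjusted p = 0.053). *mRpL50*, a mitochondria-specific protein, ranged from 10.8 to 17.2 CPM in *yw* and from 17.0 to 23.1 in *tim_up122*, where it rose by 0.39 ± 0.08 on the log2 scale (adjusted p = 0.00030). It was also higher in *tim_in24* (0.26 ± 0.09, adjusted p = 0.041). These genes also abut or overlap genes on the other strand: *mRpL18* shares 41 bases with ox, *mRpL28* 17 with Gmd, and *mRpL50* 60 with Neos. Of those, ox was higher in *tim_up122* (log2 fold change 0.24, adjusted p = 0.0036) and *tim_up10* (0.25, 0.015), and Gmd and Neos were called in none of the strains.

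Several calls were made in 1 or 2 strains and rested on few libraries. *mRpL41*, a mitochondria-specific large-subunit gene, had medians of 10.5 CPM in *yw*, 9.16 in *tim_up126*, and 9.61 in *tim_in24*. It fell by 0.31 ± 0.08 on the log2 scale in *tim_up126* (adjusted p = 0.0056) and by 0.29 ± 0.10 in *tim_in24* (0.040). The single *yw* library at ZT18 held 18.5 CPM, the highest of all, and without it the difference in *tim_up126* was -0.17 (adjusted p = 0.17) and in *tim_in24* -0.27 (0.078), and the *tim_in24* call was lost in 17 of 27 alternatives (adjusted p between 0.012 and 0.21), 12 of them the omission of a single library; of the 17 libraries, only the omission of *yw* ZT2, ZT6, or ZT14 replicate 1, *yw* ZT22 replicate 2, or *tim_in24* ZT14 kept it. *mRpS9*, whose bacterial relative touches the tRNA in the peptidyl site, was higher in *tim_up10* (0.20 ± 0.07, adjusted p = 0.032) and *tim_in24* (0.23 ± 0.07, 0.010). The *tim_up10* call was lost in 12 of 27 alternatives, 7 of them the omission of a single library (*yw* ZT10 replicate 1, ZT14 replicate 2, or ZT22 replicate 2, or *tim_up10* ZT2, ZT6, ZT14, or ZT22), with adjusted p between 0.0079 and 0.44. In *tim_in24* *mRpL10*, a stalk-base protein in bacteria, rose by 0.28 ± 0.09 (adjusted p = 0.031), and *mRpL24* by 0.26 ± 0.08 (0.012). There *mRpL48*, a mitochondria-specific protein, fell by 0.41 ± 0.14 (0.032), and *mRpL16*, of a family near the catalytic centre in bacteria, fell by 0.25 ± 0.08 (0.022). *mRpL48* shares 164 bases with frtz on the other strand, which was higher in *tim_in24* (0.23, adjusted p = 0.046). The ZT22 library of *tim_in24* stood apart, with the highest summed level of the 73 genes (1646 CPM) and the lowest neuron markers (2631 CPM, where the other 5 libraries of this strain held 3608 or more), and without it *mRpL10* (adjusted p = 0.11) and *mRpL48* (0.051) were no longer called. Both were also lost without *tim_in24* ZT14, and *mRpL48* without *tim_in24* ZT2 or *yw* ZT6 replicate 2, with adjusted p between 0.0051 and 0.11 for *mRpL10* and between 0.0027 and 0.12 for *mRpL48* over 27 alternatives. Without the ZT2 library, in which *mRpL16* was at 14.1 CPM against 22.05 to 29.8 in the other 5, the *mRpL16* difference was -0.14 (adjusted p = 0.24), and the call was also lost without *tim_in24* ZT6 or *yw* ZT2 or ZT14 replicate 2 (adjusted p between 0.0062 and 0.24 over 27 alternatives). Where no member fell by the test, the smallest p among lower members belonged to *mRpL34* in *tim_up122* (log2 difference -0.32 ± 0.15, adjusted p = 0.14) and to *mRpL14* in *tim_up10* (-0.29 ± 0.12, 0.087). *mRpL14* passed the threshold without the ZT10 library of *tim_up10* (-0.39, adjusted p = 0.037), with adjusted p between 0.010 and 0.34 over 27 alternatives.

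Chromosome 2, which carries the deletions, holds 24 of the 73 genes. It held 5 of the 5 called members in *tim_up126*, 4 of 5 in *tim_up122*, 3 of 4 in *tim_up10*, and 7 of 10 in *tim_in24*. Over all genes tested, 33.5, 34.3, 30.5, and 30.5% on chromosome 2 were called in these strains, against 20.7, 21.6, 19.3, and 22.5% of all other genes. The other genes include those without a known chromosome, since 10353 of the 11027 genes tested were matched to the annotation. In the same order, 20.8, 16.7, 12.5, and 29.2% of the members on chromosome 2 were called. The deletions and the rest of each strain's chromosomes cannot be told apart in this design.

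The deletion strains were also compared with each other in the same model. Between *tim_up126* and *tim_up122*, 4 members were called (background 11.4% of all genes), each lower in *tim_up126*: *mRpS23* (log2 difference -0.35 ± 0.10, adjusted p = 0.023), *mRpL41* (-0.32 ± 0.08, 0.013), *mRpL50* (-0.30 ± 0.07, 0.0099), and *mRpS24* (-0.28 ± 0.09, 0.046). Between *tim_up126* and *tim_up10* (6.82%), 1 member was called, *mRpS9*, lower in *tim_up126* (-0.27 ± 0.07, adjusted p = 0.014). Between *tim_up126* and *tim_in24* (10.4%), the 3 members called were lower in *tim_up126*: *mRpL10* (-0.33 ± 0.09, adjusted p = 0.021), *mRpL46* (-0.33 ± 0.10, 0.033), and *mRpS9* (-0.30 ± 0.06, 0.0030). Between *tim_up122* and *tim_in24* (12.6%), *mRpL48* (0.43 ± 0.14, adjusted p = 0.041) and *mRpS5* (0.19 ± 0.06, 0.040) were higher in *tim_up122*. The edgeR test called 0 members between *tim_up122* and *tim_up10* (7.66%) and 0 between *tim_up10* and *tim_in24* (7.35%), with 9 and 4 at an unadjusted p under 0.05. *mRpL27* and *mRpL4* were called in none of these pairs.

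The second comparison asked whether the genes varied over the day, as a cosine and sine of 24 h fitted to all 47 libraries with a level for each strain. The genes that passed had their maximum in the dark. A rhythm was called for 31 of the 73 genes (22 large-subunit and 9 small-subunit symbols), where 31.3% of all genes tested were called. DESeq2 called 30, and 28 to 37 were called without 1 library at a time. All 31 had their fitted peak between ZT16.2 and ZT21.1: 11 between ZT16 and ZT18, 13 between ZT18 and ZT20, and 7 between ZT20 and ZT22. Of the 3446 genes called in all, 1050 peaked between ZT16 and ZT22. Amplitudes, the log2 difference between peak and mean, were small, with a median of 0.12 over the 73 genes beside 0.09 over all genes tested. By the rough split on symbol number, the 28 mitochondria-specific members had a median amplitude of 0.14 and 16 calls. The 45 bacterial-family members had a median of 0.09 and 15 calls.

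**Figure D3:**
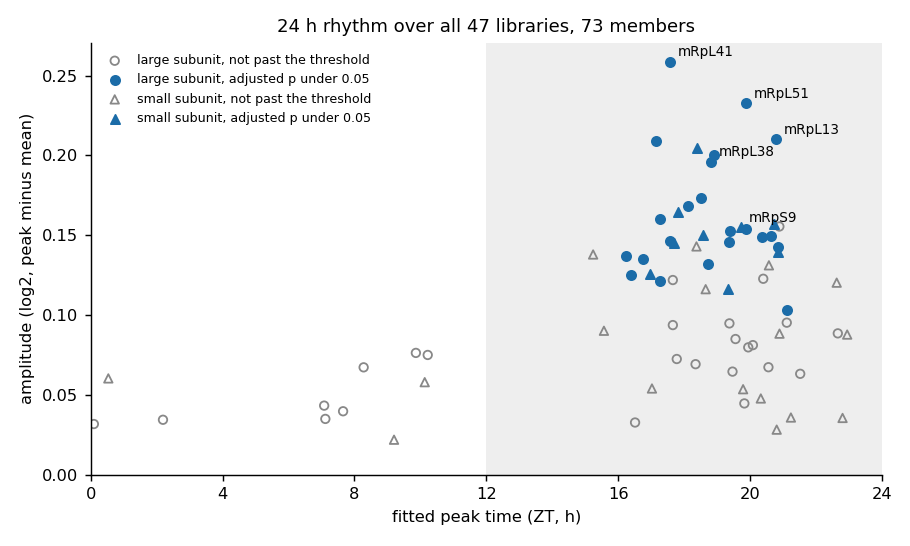
Fitted peak time (x axis, ZT in hours, dark phase shaded) and amplitude (y axis, log2) of the 24 h rhythm over all 47 libraries for each of the 73 genes; circles are mRpL and triangles mRpS symbols, and filled points have an adjusted p under 0.05. The 31 filled points lie between ZT16.2 and ZT21.1.

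The smallest p belonged to *mRpL38*, a mitochondria-specific protein of the large subunit. In *yw* its libraries held 23.8 and 24.8 CPM at ZT2, 23.1 and 25.98 at ZT6, 25.2 and 22.7 at ZT10, 28.2 and 33.8 at ZT14, 32.3 at ZT18, and 37.2 and 29.6 at ZT22. Each night library was above each day library of *yw*. Over all libraries its amplitude was 0.20 with a peak at ZT18.8 (adjusted p = 2.8e-05). *mRpS9* followed (amplitude 0.16, peak ZT19.7, adjusted p = 4.4e-05), with strain means at ZT6 and ZT18 of 46.0 and 69.8 CPM in *yw*, 51.6 and 57.9 in *tim_up126*, and 52.1 and 67.2 in *tim_up122*. The gene shares 9817 bases with wtrw and 874 with ArgRS-m, both on the other strand, and wtrw was lower in each deletion strain (log2 fold change -0.17 to -0.30). ArgRS-m, the mitochondrial arginyl-tRNA synthetase, was called with a peak at ZT20.4 (amplitude 0.09, adjusted p = 0.038). *mRpL51* (0.23, ZT19.9, adjusted p = 9.6e-05), *mRpL41* (0.26, ZT17.6, 0.00010), and *mRpL13* (0.21, ZT20.8, 0.00015) had the next smallest p. *mRpL13*, whose bacterial relative binds early to the large-subunit rRNA, lies wholly within CG10602 on the same strand, so reads of the pair may not have been separable. CG10602 had its peak at ZT6.58 (amplitude 0.08, adjusted p = 0.039). These 5 rhythms passed the test under each of 55 alternatives.

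The rhythm was also fitted within the 3 strains that had replicates, and members were called in *yw* alone of these. In the 11 *yw* libraries 14 of the 73 genes were called (15.6% of all genes tested) and DESeq2 called 11. The median amplitude was 0.17 over the members and 0.14 over all genes tested. *mRpS22*, a mitochondria-specific small-subunit gene, led (amplitude 0.26, peak ZT17.9, adjusted p = 0.0043). Its day libraries held 21.1 to 23.96 CPM and its night libraries 26.9 to 30.6, with no overlap. *mRpL13* came next (0.32, ZT19.4, adjusted p = 0.0069), with 10.3 to 13.4 CPM by day and 14.3 to 17.0 at night. The count in *yw* rested on a few libraries: it was 4 without the single ZT18 library, 7 without ZT22 replicate 1, 7 without ZT6 replicate 2, 8 without ZT10 replicate 2, and 4 without both ZT22 libraries. Without both ZT22 libraries *mRpL13* was not called (adjusted p = 0.10).

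In *tim_up126* the edgeR test called 0 of the 73 genes (6% of all genes tested) and DESeq2 0, with 3 at an unadjusted p under 0.05. The smallest p there were those of *mRpL52* (amplitude 0.27, peak ZT17.6, adjusted p = 0.21), mitochondria-specific, and *mRpL11* (0.27, ZT15.4, 0.26), a stalk-base protein in bacteria. In *tim_up122* it likewise called 0 (7.28%) and DESeq2 0, with 1 at an unadjusted p under 0.05. The smallest p were those of *mRpL10* (0.20, ZT17.9, adjusted p = 0.19) and *mRpL45* (0.16, ZT18.1, 0.26), which in human mitochondria lies at the inner membrane. The test of the difference in rhythm among the 5 strains called 0 members (1.2% of all genes) and DESeq2 0, with 2 at an unadjusted p under 0.05: *mRpS10* (adjusted p = 0.26) and *mRpS18A* (0.37). A weaker rhythm in the deletion strains was therefore not shown for any member. The median amplitude over the 73 genes was 0.11 in *tim_up126* and 0.11 in *tim_up122*, beside 0.12 and 0.13 over all genes tested.

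Night and day levels were also compared without a fitted curve, which is a different measure from the amplitude. The mean log2 CPM of the 3 night time points was above that of the 3 day time points for 70 of the 73 genes in *yw* (95.9%), 65 in *tim_in24* (89.0%), 51 in *tim_up10* (69.9%), 47 in *tim_up122* (64.4%), and 44 in *tim_up126* (60.3%). Over all genes tested the shares were 48.4, 48.9, 49.7, 48.3, and 48.4%. The median night-minus-day difference over the members was 0.22, 0.23, 0.10, 0.07, and 0.03 on the log2 scale in the same order. These counts were not tested between strains, since members are not replicates. Without 1 library at a time the counts were 63 to 70 in *yw*, 57 to 69 in *tim_in24*, 46 to 57 in *tim_up10*, 46 to 53 in *tim_up122*, and 35 to 55 in *tim_up126*, and with library totals alone 37 in *tim_up126*. In all 5 strains 24 members (32.9%) were higher at night, against 10.5% of all genes. Of these, *mRpS31*, chosen after its values were seen, differed by 0.18 to 0.48 on the log2 scale over the strains, and *mRpL38* by 0.15 to 0.40.

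**Figure D4:**
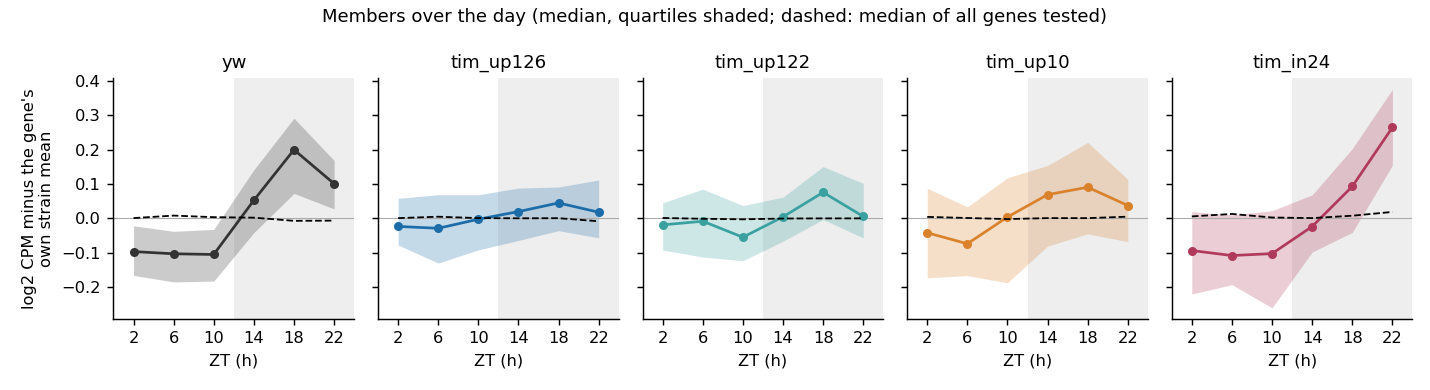
Median (points) and quartiles (shading) over the 73 genes of log2 CPM minus the gene's own mean over the time points of the strain (y axis), against ZT (x axis, hours, dark phase grey), with the median of all genes tested dashed. The median rose from -0.10 at ZT10 to 0.20 at ZT18 in *yw* and from -0.10 at ZT10 to 0.26 at ZT22 in *tim_in24*, and stayed between -0.03 and 0.04 in *tim_up126*.

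The summed level of the 73 genes showed the same order. In *yw* the 6 day libraries held 1181 to 1237 CPM, the ZT14 libraries 1319 and 1350, the ZT18 library 1473, and the ZT22 libraries 1469 and 1316. Each night library of *yw* was above each day library. In *tim_up126* the 12 libraries ranged from 1207 to 1432 CPM (median 1314) and in *tim_up122* from 1312 to 1441 (median 1371), and over both replicates night and day overlapped in each. Within a replicate number they overlapped in *tim_up126* (replicate 1, 1337 to 1379 CPM by day and 1374 to 1432 at night; replicate 2, 1207 to 1247 and 1245 to 1292). In *tim_up122* each night library was above each day library of its replicate number (replicate 1, 1312 to 1346 CPM by day and 1351 to 1435 at night; replicate 2, 1353 to 1394 and 1403 to 1441). In *tim_up10* the 3 day libraries held 1274 to 1312 CPM and the night libraries 1367, 1429, and 1368, and in *tim_in24* 1286 to 1299 by day and 1354, 1464, and 1646 at night.

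Markers of muscle moved with this in *yw*. The summed level of the 5 muscle markers, of which Act88F was at 28.7 CPM or less, was 1955 to 2794 CPM in the day libraries of *yw* and 2803 to 3474 at night, and 5 of 5 had a called rhythm there. In *tim_up126* and *tim_up122* 0 of the 5 were higher at night, and in *tim_up10* and *tim_in24* 4 of the 5 were. Their part in the night-high levels of the members was not tested. In *tim_in24* the summed muscle markers were at 2238 to 3529 CPM by day and 2632 to 3515 at night. Their median night-minus-day difference there was 0.17 on the log2 scale. The photoreceptor markers were called rhythmic over all libraries in 6 of 6 and were higher at night in 6 of 6 in *yw* and in 5 of 6 in *tim_up126*, and their part was not tested either. No neuron marker of the 5 was called, with 1 at an unadjusted p under 0.05.

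**Figure D5:**
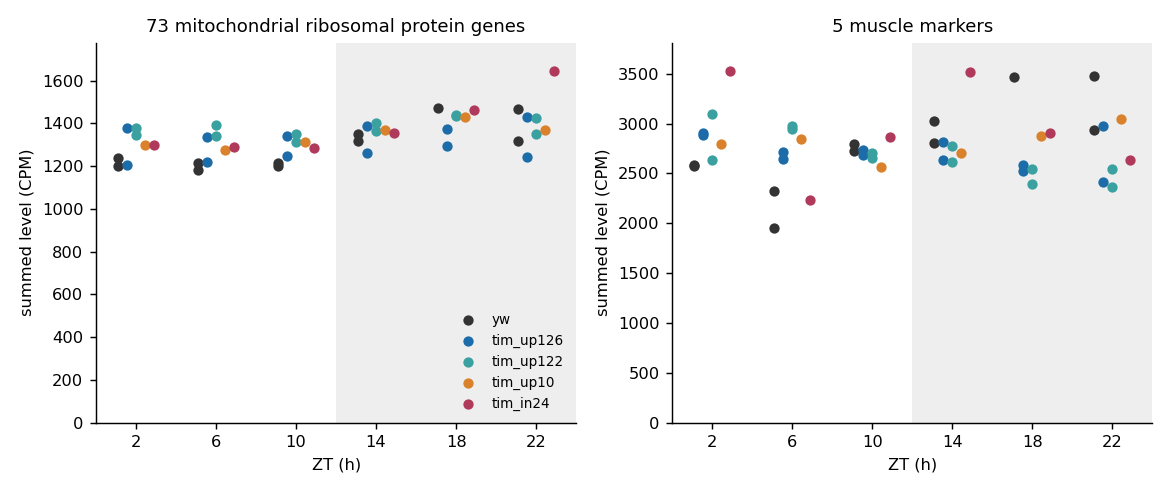
Summed level (y axis, CPM) of the 73 mitochondrial ribosomal protein genes (left) and of 5 muscle markers (right) in each library against ZT (x axis, hours, dark phase grey), coloured by strain and shifted sideways within a time point for legibility. In *yw* the ZT18 library and ZT22 replicate 1 have the highest sums, at 1473 and 1469 CPM for the ribosomal protein genes and 3466 and 3474 CPM for the muscle markers.

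Genes that work with the mitochondrial ribosome were counted in the same fits. The small-subunit proteins with other symbols, tko (S12) and bonsai (S15), were called in none of the day comparisons, and 1 of the 2 had a called rhythm over all libraries. Of 9 translation factors, 5 had a called rhythm, each with its peak in the dark, and of 15 mitochondrial tRNA synthetases 6 did, 5 of them with a peak in the dark. Of 66 nuclear genes for respiratory chain and ATP synthase subunits, whose mitochondrially made partners this ribosome produces, 49 had a called rhythm over all libraries and 49 in *yw*. The edgeR test called 1 in *tim_up126* and 0 in *tim_up122*, where 2 and 7 had an unadjusted p under 0.05. Over all genes tested, 31.3% were called over all libraries, 15.6% in *yw*, 6% in *tim_up126*, and 7.28% in *tim_up122*. The edgeR test of the difference in rhythm among the 5 strains called 0 of the 66, with 28 at an unadjusted p under 0.05. A weaker rhythm in the deletion strains was therefore not shown for any single gene of this list. Of the 85 tested genes for cytosolic ribosomal proteins 3 had a called rhythm. Over the day 72 of these 85 cytosolic genes rose and 1 fell in *tim_up10*, and 70 rose in *tim_in24*, while 4 and 7 of the 73 mitochondrial ribosomal protein genes rose there. The difference between the lists was not tested.

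The members varied among libraries about as much as all genes tested did. The SD of log2 CPM over the 47 libraries had a median of 0.22 over the 73 genes, beside 0.24 over all genes tested, and a median SD of 0.20 between replicates of a group. Among the 62 genes with a mean of at least 10 CPM, *mRpL27* varied most (SD 0.70), followed by *mRpS14* (0.33), of the family of a bacterial head protein of the small subunit, and *mRpL48* (0.31). For *mRpS14* the SD between replicates was 0.35. *mRpS5* (0.12), *mRpS30* (0.13), and *mRpL53* (0.14) varied least. *mRpL53* shares 1470 bases with CG33155 on the same strand and 1470 with AGO1 on the other, so its reads may not have been separable. Of the 73 genes, 43 overlap another gene. *mRpS5*, of the family that shapes the mRNA entry site in bacteria, held 58.9 to 95.1 CPM over all libraries.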

How the data were processed

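Poly(A) RNA of fly heads was sequenced in 47 libraries, and the authors deposited a table of raw read counts per gene. The study's methods name Tophat and ESAT for alignment and counting, the processing notes name STAR and featureCounts and the build dm6, and versions and strand setting are not given in the sources used here. A deposited table of normalized values was not used. Groups came from strain and time point in the labels, and the study calls its replicates biological. Levels are CPM with TMM factors. edgeR 4.0.16 (R 4.3.3) was run as the quasi-likelihood F test on the 11027 genes kept by filterByExpr. Day means used 1 coefficient for each of 30 groups. Groups with 1 library add nothing to the estimate of spread in this fit, which came from the replicates of *yw*, *tim_up126*, and *tim_up122*. The rhythm over all libraries used a level for each strain and a 24 h cosine and sine shared by all strains. The test of the difference in rhythm gave each strain its own cosine and sine, and the fits within a strain used its libraries alone. P-values were adjusted by Benjamini-Hochberg over all tested genes. Log2 CPM used a prior count of 2. Named genes were, for each strain against *yw*, up to 4 called members with the largest log2 fold change in each direction (or, with none, the 1 with the smallest p), the 5 smallest p of the rhythm over all libraries and 2 of each other rhythm test, and the 3 most and 3 least variable with a mean of at least 10 CPM; the other called members were named after their values were seen. The members and lists were chosen with earlier results of these data known. Coordinates are from the Ensembl annotation of the dm6 assembly. On simulated counts, 170 of 200 genes changed 1.5-fold were recovered for *tim_up126* over the day, with 8 false calls. For the rhythm over all libraries, 181 of 200 genes with an amplitude of 0.5 were recovered, with 5 false calls. Smaller amplitudes were not simulated. The simulated counts had the same dispersion for all genes and no shift between replicates, so these rates need not hold for the real libraries. Over all genes, replicates differed by more than sampling noise in each of 17 pairs (chi-square per degree of freedom of at least 4.243). Over the members alone it was 1.001 to 1.851, at or near sampling noise in several pairs. The value for the members was scaled to their own totals. It therefore leaves out a shift of all members together, such as that between the replicates of *tim_up126*. Alternatives were RLE scaling, library totals alone, DESeq2 1.42.0, other filters, a replicate block (over all strains, or within each), only the 2 strains compared, an additive model, and omission of single libraries or of both *yw* ZT22 libraries.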

Additional observations from a re-analysis of the deposited data

Results flagged for a closer look

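Members whose difference from *yw* over the day was not the same in 2 deletion strains, by edgeR's quasi-likelihood test of the strains against each other, are given here by value alone. *tim_up126* was lower than *tim_up122* for *mRpS23* (log2 difference -0.35), *mRpL50* (-0.30), *mRpL41* (-0.32), and *mRpS24* (-0.28). It was lower than *tim_up10* for *mRpS9* (-0.27), and lower than *tim_in24* for *mRpL46* (-0.33), *mRpS9* (-0.30), and *mRpL10* (-0.33). *tim_up122* was higher than *tim_in24* for *mRpL48* (0.43) and *mRpS5* (0.19). Single extreme libraries were not screened for, since each strain and time point held 1 or 2.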

How the results depend on the processing

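Alternatives were recomputed for the counts and the named members, not for the other called members or the differences between deletion strains. Of 1157 recomputed values of the named members, 1097 kept their direction and side of the threshold, 55 lost the call, 5 gained it, and 0 changed direction. With library totals alone, 6 members fell in *tim_up126*, 2 rose and 7 fell in *tim_up10*, and 3 rose and 5 fell in *tim_in24*. With DESeq2, 0 fell in *tim_up126*, 2 rose in *tim_up10*, and 0 fell in *tim_in24*. Without the filter on low counts 4 fell in *tim_up126*. In the additive model 2 fell in *tim_up126*, and 11 rose and 1 fell in *tim_in24*. With only the 2 strains compared, 1 fell in *tim_up10*. The cause was not tested. Over the omission of single libraries, the number that fell was 0 to 5 in *tim_up126*, 0 to 1 in *tim_up10*, and 0 to 3 in *tim_in24*, the number that rose was 5 to 8 in *tim_up122* and 2 to 5 in *tim_up10*, and the rhythms called in *yw* were 4 to 12. Without both *yw* ZT22 libraries, an alternative chosen after seeing the data, 4 rhythms were called in *yw*. Replicate numbers were not taken to pair the samples in the main fits. The correlation of same-numbered deviations was over 0.1 in 25 of 136 pairs of groups (median 0.0152). Within strains it was over 0.1 in 3 of 10 pairs in *yw*, 7 of 15 in *tim_up126*, and 7 of 15 in *tim_up122*. Pairs of groups across strains cannot show a shift whose sign differs between strains. The summed level of the members differed between replicates in 1 direction at 6 of 6 time points in *tim_up126*, and in the opposite direction in *tim_up122*. The main fits may therefore leave out a pairing within these strains. With a replicate block, 1 member fell in *tim_up10*, 32 rhythms were called over all libraries, and the other counts stayed within 1.5 times. With a replicate block within each strain, chosen after seeing the data, 4 members fell in *tim_up126* and 1 in *tim_up10*, 32 rhythms were called over all libraries, 12 in *yw*, and 0 in *tim_up126* and *tim_up122*. Low counts limit the precision of single members, which held as few as 2 reads in a library, and *tim_up10* and *tim_in24* had 1 library per time point.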
